A study of Daucus carota with 10 samples.

Results

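DcMYB6 and DcMYB7 are the pair of carrot (Daucus carota) MYB113-like transcription factor genes examined here, found in the expression tables by their gene identifiers, 108192278 for DcMYB6 and 108213488 for DcMYB7. They are 2 of 36089 annotated genes, and each table also lists 819 loci outside the annotation. RNA-Seq, which sequences cDNA copied from mRNA, was run on 10 libraries of greenhouse-grown taproots at 120 days, 2 biological replicates in each of 5 groups. E was xylem and F phloem of one purple cultivar, G was xylem and H phloem of the other, and CT was cut as an undivided slice from ‘H13.360IND’, an orange carrot, so that CT holds both tissues. Taproots of a cultivar were mixed before sampling, so a library is not one plant, and E and F, or G and H, may come from the same roots. The sources disagree on the cultivars: by the deposited labels E and F belong to ‘Purple Haze’ with E marked orange, and G and H to ‘Purple 68’ with G marked purple, whereas the study's methods place E and F in ‘Purple 68’ and G and H in ‘Purple Haze’. Groups are therefore called by their letters, and a contrast of E and F against G and H is one cultivar against the other under either reading.

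Anthocyanins are the purple and red pigments that plant cells store in the vacuole. R2R3-type MYB proteins carry a DNA-binding domain of paired repeats, and those of the anthocyanin subgroup act together with a bHLH protein and a WD40 protein in a complex that switches on the late steps of the pathway. The MYB member usually sets where and when pigment is made. DcMYB6 is known to raise anthocyanin when expressed in Arabidopsis. For DcMYB7, the study cites an earlier report that carrot taproots lost their purple pigment when the gene was knocked out.

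The sequences at hand for these genes are the designed primers with which the study amplified them by qRT-PCR, and they are shown because they identify the transcripts meant by each name. They are written from the 5′ end in lower case, and the length of the primers is 21 or 23 bases.
DcMYB7 forward: tgaagttttgaagccccttcc
DcMYB7 reverse: tgttgttaatgtcgttgccgc
DcMYB6 forward: ttagtggcatcctcaagtggttc
DcMYB6 reverse: actccggccatcatctcctac
The values below come from RNA-Seq, and the qRT-PCR values were not analysed here.

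The expression level was given as FPKM, a count of fragments scaled for the exon length of the gene and the total fragments of its library. The totals by which the libraries had been scaled lay between 13909841 and 17118787 fragments. All 20 values of the 2 genes were whole multiples of 1 fragment within a tolerance of 0.01, so the fragments behind each value are known. One fragment was worth 0.0503 to 0.0619 FPKM for DcMYB6 and 0.0514 to 0.0633 FPKM for DcMYB7, and amounts below 3 fragments were treated as too few to show a level. The intervals given for single libraries and for fold values from fragments are exact Poisson or conditional binomial intervals at 95% and cover counting error only. The second E and second H libraries listed the fewest loci at 1 FPKM or more, 15219 and 15434, against 16909 to 18450 in the other 8. Tissue labels could be checked with 1 gene, the APL-like LOC108225351, a relative of a phloem regulator known from Arabidopsis. It had 0 and 0.0396 FPKM in E and 0.333 and 0.268 FPKM in F, higher in phloem, but 4.87 and 5.83 FPKM in G and 0.209 and 0.283 FPKM in H, higher in xylem, and 1.27 and 1.70 FPKM in CT. It thus ran with the labelled tissue in E and F, though at levels near 0 in both, and against it in G and H. No further marker could be identified by name, and 1 such gene cannot settle the tissue labels of either cultivar. In taproot tissue, fewer cells expressing a gene and less RNA per cell cannot be told apart.

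DcMYB7 was the more abundant of the pair where both were high. Its level was 139 and 68.4 FPKM in E and 105 and 172 FPKM in F, which rested on 1237 to 3233 fragments per library. In G it was 0.349 and 0.111 FPKM, in H 0.175 and 0.338 FPKM, and in CT 0.127 and 0.309 FPKM. Every E and F library thus lay far above every G, H and CT library, and the last 3 groups, at 2 to 6 fragments per library, overlapped one another completely. The order of the means was F (139 ± 47.9 FPKM), E (104 ± 49.7 FPKM), H (0.256 ± 0.116 FPKM), G (0.230 ± 0.168 FPKM) and CT (0.218 ± 0.129 FPKM; SD, n = 2 each), in which only the step between E and H was larger than the spread between replicates.

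DcMYB6 followed the same outline with a different lower part. It had 40.1 and 31.5 FPKM in E and 33.8 and 53.2 FPKM in F, from 582 to 1020 fragments per library. In G it had 0.0569 and 1.46 FPKM, in H it was listed at 0 and had 0.0552 FPKM, and in CT it had 1.42 and 2.11 FPKM. The G libraries stood apart, since the first held 1 fragment and the second 27, a fold of 25.7 with an interval of 4.24 to 1053. The origin of the second value is in doubt, because the group level that the study lists for DcMYB6 in G does not match the mean of the deposited values, and every value resting on that library carries this limit. The order of the means was F (43.5 ± 13.8 FPKM), E (35.8 ± 6.09 FPKM), CT (1.77 ± 0.487 FPKM), G (0.760 ± 0.994 FPKM) and H (0.0276 ± 0.0390 FPKM; SD, n = 2 each). E and F overlapped, CT and G overlapped because the second G library exceeded the first CT library, and H, with 0 and 1 fragments, lay below CT but could not be separated from the first G library at this depth.

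**Figure D1:**
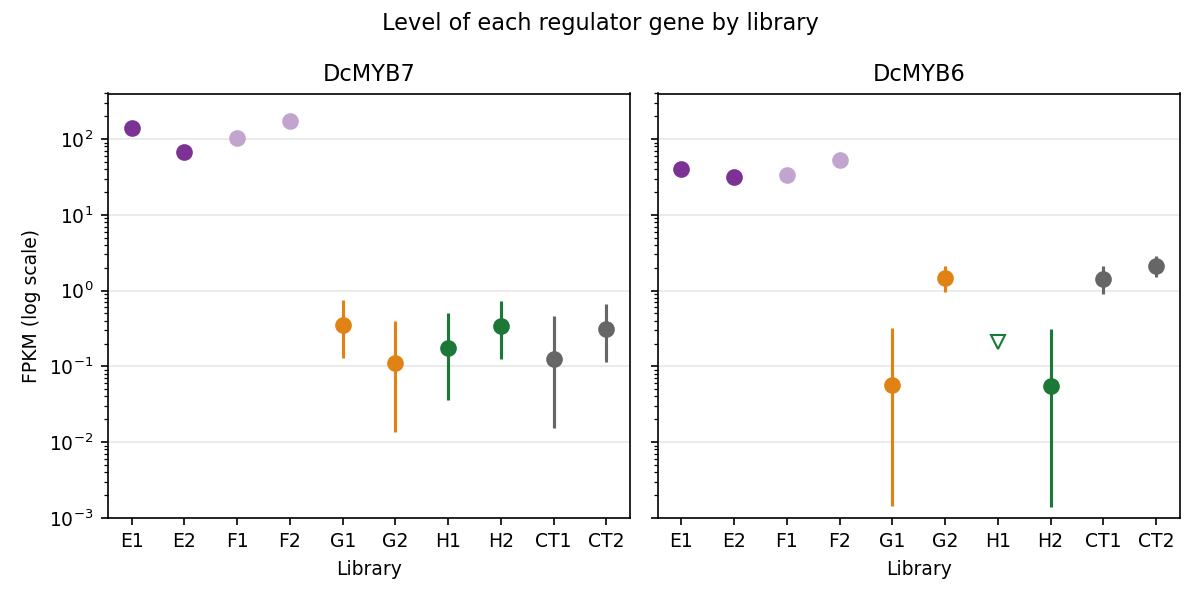
FPKM (log scale) of DcMYB7 and DcMYB6 in each of the 10 libraries, with vertical lines for the 95% counting interval and an open triangle at the upper limit (0.210 FPKM) for the library listed at 0. Both genes sit above 31 FPKM in the 4 E and F libraries and at or below 2.11 FPKM in the other 6, where DcMYB6 is higher in CT and the second G library than in the rest.

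The ratio of the pair within a library does not depend on the depth of that library. Per length, DcMYB7 stood at 3.46 (3.19 to 3.75) and 2.17 (1.97 to 2.40) times DcMYB6 in E, and at 3.10 (2.83 to 3.41) and 3.24 (3.02 to 3.48) times in F. The second E library had the lowest of these 4 ratios, with an interval apart from those of the other 3. The order was turned round in CT, where the ratio was 0.0889 (0.0102 to 0.360) and 0.146 (0.0507 to 0.345), and in the second G library, where it was 0.0757 (0.00872 to 0.301). In these 3 libraries DcMYB6 held 23, 42 and 27 fragments against 2, 6 and 2 for DcMYB7, so the intervals all stayed below 1. In the first G library and in H no order could be shown, with 6, 3 and 6 fragments for DcMYB7 against 1, 0 and 1 for DcMYB6. These ratios were not tested between groups. The extent to which fragments of one gene could have been assigned to the other was not tested, since the sequences of the genes were not compared.

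**Figure D2:**
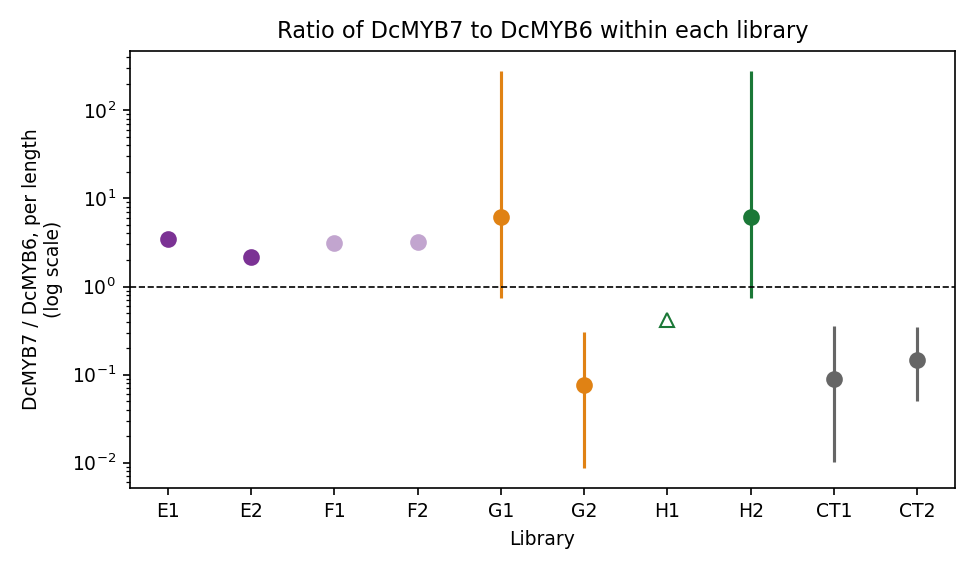
Ratio of DcMYB7 to DcMYB6 per length (log scale) in each library, with vertical lines for the 95% counting interval, a dashed line at equal levels, and an open triangle at the lower limit (0.422) for the H library in which DcMYB6 is listed at 0. The 4 E and F libraries lie between 2.17 and 3.46, and both CT libraries and the second G library lie below 1.

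The comparison of cultivars asks which genes differ between both tissues of one purple carrot and both tissues of the other. DcMYB7 rose by 6.54 (SE 0.30) in E and F against G and H on the log2(FPKM + 1) scale, with a Benjamini-Hochberg adjusted p of 0.000116 from limma, and was the 5th largest change in size of 20081 genes tested. DcMYB6 rose by 4.95 (SE 0.34) on the same scale, with an adjusted p of 0.000489 from limma, and stood 22nd. For both genes all 4 E and F libraries were above all 4 G and H libraries. Of the genes tested, 3.89% were called higher in E and F and 7.78% higher in G and H, where a call needs an adjusted p below 0.05 together with a change of 1 or more on the log2 scale. Adding 1 to FPKM understates the change of genes that are near 0 in one group, and with 0.1 added the log2 fold changes were 8.45 for DcMYB7 and 7.29 for DcMYB6. Without the second E and second H libraries the values were 6.84 and 5.06. Both genes were called under all 16 alternatives, which include the setting without a minimum fold change, where no call can be lost.

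Between the xylems, DcMYB7 rose by 6.33 (SE 0.46, adjusted p 0.00873, limma) in E against G and DcMYB6 by 4.50 (SE 0.54, adjusted p 0.0213, limma) on the log2(FPKM + 1) scale, where 1.62% of 18924 genes were called higher in E and 5.32% higher in G (306 and 1007 genes, and 549 and 945 under quantile normalization). From summed fragments, DcMYB7 was 459-fold higher (3842 fragments in E and 8 in G, interval 233 to 1065) and DcMYB6 46.2-fold higher (1352 fragments in E and 28 in G, interval 31.8 to 69.8). The DcMYB6 fold rests on the second G library, which held 27 of the 28 fragments, and without it the log2 fold change was 5.11. The DcMYB6 call was lost when any one of the 4 libraries was left out. The DcMYB7 call was lost without the second E library or either G library, where every other call of this comparison was lost too. Log2 fold changes of the pair were 3.89 or more throughout. The DcMYB6 call was also lost without a filter on low values (adjusted p 0.0672) and with voom on the recovered fragments (adjusted p 0.0519).

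Between the phloems the difference was as large. DcMYB7 rose by 6.76 (SE 0.43, adjusted p 0.00475, limma) in F against H and DcMYB6 by 5.40 (SE 0.49, adjusted p 0.0114, limma) on the log2(FPKM + 1) scale, standing 4th and 17th by size among 18671 genes, of which 0.53% were called higher in F and 0.878% were called higher in H. Summed fragments came to 5039 in F and 9 in H for DcMYB7, a 543-fold difference with an interval of 286 to 1189. For DcMYB6 they were 1615 in F and 1 in H, a ratio of 1567 with an interval of 281 to 61950. Both calls were lost when any one of the 4 libraries was left out, and so was every other call of this comparison. Voom on the recovered fragments called 0 of all 18671 genes (adjusted p 0.0556 for both MYB genes, voom). The DcMYB6 call was also lost without the filter (adjusted p 0.0901, limma). Log2 fold changes of the pair stayed above 5 in all of these fits.

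The xylem and phloem libraries of E and F overlapped for both genes. The log2 fold change in E against F was -0.46 for DcMYB7 (interval -1.53 to 0.61, adjusted p 0.885, limma) and -0.25 for DcMYB6 (interval -1.07 to 0.57, adjusted p 0.956, limma), where 0.0547% of 18293 genes were called higher in E and 0.317% higher in F. Leaving out 1 library turned the sign of each (0.04 for DcMYB7 without the second E library, 0.07 for DcMYB6 without the second F library). In G against H neither gene reached the minimum of 1 FPKM in a group mean, and neither was called in the fits that kept them (adjusted p 0.114 to 0.607 for DcMYB6 in 3 fits and 0.93 to 0.988 for DcMYB7 in 2, limma). From fragments, DcMYB7 stood at 0.880 of its H level in G (interval 0.296 to 2.57, 8 fragments in G and 9 in H), whereas DcMYB6 had 28 fragments in G and 1 in H, nearly all in the second G library. The tissue by cultivar interaction, the xylem to phloem change in E and F minus that in G and H, was -0.43 for DcMYB7 (interval -1.85 to 0.996, adjusted p 0.952, limma) and -0.90 for DcMYB6 (interval -2.52 to 0.71, adjusted p 0.794, limma), and passed for neither.

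Against the orange root, both genes rose in E and in F. DcMYB7 rose by 6.34 in E against CT (SE 0.44, adjusted p 0.00925, limma) and by 6.80 in F against CT (SE 0.30, adjusted p 0.00236, limma). DcMYB6 rose by 3.73 in E against CT (SE 0.34, adjusted p 0.014, limma) and by 3.98 in F against CT (SE 0.30, adjusted p 0.00569, limma). In E against CT 3.54% of 19400 genes were called higher in E and 11.6% higher in CT (687 and 2258 genes, and 1166 and 1373 under quantile normalization), and for F against CT 7.77% of 19712 genes were called higher in F and 21.6% in CT (1532 and 4257, and 2075 and 2229 under quantile normalization). Across all genes tested, the median change on the log2 scale was -0.49 in E against CT and -0.41 in F against CT. Leaving out either CT library ended every call of both comparisons, these 4 among them. The log2 fold changes of the pair were then 3.55 or more.

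DcMYB6 fell by 1.42 in H against CT (SE 0.26, adjusted p 0.037, limma), from 1 fragment in H and 65 in CT, a ratio of 0.0155 with an interval of 0.000387 to 0.0896. In H against CT 3.85% of 19496 genes were called higher in H and 6.31% higher in CT (751 and 1230 genes), and under quantile normalization the balance turned, with 1326 and 1247. This call was lost without the second H library or either CT library and in one fit of all 10 libraries (adjusted p 0.0625, limma). Without the first CT library nearly every call of H against CT was lost, and without the second every call. In G against CT the DcMYB6 value was -0.77 (interval -1.93 to 0.39, adjusted p 0.272, limma), where 5.36% of 19456 genes were called higher in G and 7.96% higher in CT (1043 and 1549 genes), a balance that also turned under quantile normalization, with 1317 and 1079. DcMYB7 was below the filter in both comparisons, and its fragments, 8 in G, 9 in H and 8 in CT, gave ratios of 0.999 (interval 0.327 to 3.05) for G over CT and 1.14 (interval 0.389 to 3.38) for H over CT.

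Most of the abundant enzymes of the pathway were high in H, where the MYB genes were low. The study listed 20 structural genes, chosen on these same samples, and singled out 10 of them as high in all the purple tissues, which in its reading are E, F and H. These 10 run from PAL4, C4H1 and 4CL3-1 of the general phenylpropanoid route through CHS1, CHI1 and CHI2, which build the flavonoid skeleton, and F3H1 and F3'H1, which hydroxylate it, to DFR1 and LDOX1, which make the anthocyanidin. The group means of these 10 genes spanned 108 to 6056 FPKM in E (median 801), 109 to 8245 FPKM in F (median 970), 4.15 to 116 FPKM in G (median 27.0), 130 to 7377 FPKM in H (median 563) and 0.494 to 71.0 FPKM in CT (median 2.42). The choice of these 10 fixed that they are high in E, F and H and low elsewhere, so their levels are a description. The choice did not use the level of the MYB genes, which were high in E and F and low in H. The pair was itself taken up with those levels known, so the contrast in H is a description too. E is marked orange by the labels and was high in these enzymes, and G is marked purple and was low. The other 10 structural genes had lower group means, with medians of 0.695 FPKM in E, 9.47 FPKM in F, 0.834 FPKM in G, 4.44 FPKM in H and 1.91 FPKM in CT, and did not share that outline. Among them the UFGT-like LOC108210672, named after its values were seen, shared the low levels of the MYB genes in G and H but not in CT. It had 2.13 and 2.83 FPKM in E and 0.870 and 5.63 FPKM in F. In G it had 0.182 and 0.104 FPKM, in H 0.109 and 0 FPKM, and in CT 2.10 and 1.74 FPKM. It rose in E and F against G and H by 1.67 (adjusted p 0.0312, limma), a call kept in 8 of 16 alternatives. Against CT its changes were 0.25 for E (adjusted p 0.584, limma) and 0.28 for F (adjusted p 0.741, limma), and neither was called.

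CHS1, chalcone synthase, the first enzyme committed to flavonoids, had the highest mean of the 10 genes in E, F and H. It had 7591 and 8899 FPKM in F and 6252 and 8503 FPKM in H, so the phloems overlapped, and 4958 and 7154 FPKM in E, 78.9 and 74.8 FPKM in G and 8.40 and 8.72 FPKM in CT. Its log2 fold change in F against H was 0.17 (interval -1.15 to 1.49, adjusted p 0.925, limma), beside 6.76 for DcMYB7. In units of DcMYB7, CHS1 stood at 35.8 and 105 times its FPKM in E and 72.5 and 51.6 times in F, but at 35820 times (interval 12260 to 173700) and 25130 times (interval 11550 to 68480) in H. In G these ratios were 226 and 675, and in CT 66.4 and 28.3, with CT intervals that together span 12.8 to 553. The H intervals lay above those of the other 8 libraries.

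None of the 20 structural genes was called in F against H, where 0.53% of 18671 genes were called higher in F and 0.878% higher in H. Voom called 0 of all 18671 genes, so its 0 for the list carries no weight. Of the 20 structural genes, 8 had an unadjusted p below 0.05 (limma), as did 2989 of all 18671 genes. The median log2 fold change of the 20 was 0.43, beside 0.11 over all genes tested. The 10 genes of the purple tissues lay between -1.29 for LDOX1 and 1.21 for CHI1. Of these 10, only CHS1, F3'H1 and DFR1 overlapped between the phloems. PAL4, C4H1, CHI1 and F3H1 were higher in both F libraries, and 4CL3-1, CHI2 and LDOX1 in both H libraries. CHI1 had 1155 and 1667 FPKM in F and 644 and 557 FPKM in H. LDOX1 had 342 and 542 FPKM in F and 916 and 1220 FPKM in H. The share of all genes without such overlap was not worked out. The split into genes higher in F and genes higher in H is therefore a description, with 2 libraries a group. A lack of calls with 2 libraries a group does not show equal levels. With one fit of all 10 libraries 5 of the 20 were called, with the replicate block 3, and with quantile normalization 1. The largest values among the 20, named after they were seen, were 3.78 for CHS2 (interval 2.17 to 5.39, adjusted p 0.0563, limma) and 2.68 for CHS9 (interval 1.42 to 3.93, adjusted p 0.0692, limma), both low in E. The interval of CHS2 overlapped that of DcMYB6 (4.24 to 6.57) and lay below that of DcMYB7 (5.74 to 7.77). Whether the change of a MYB gene differs from that of an enzyme gene was not itself tested.

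In E against G both regulators and 10 enzyme genes rose. Of the 20 structural genes 16 were tested, 10 rose and 2 fell, and the 10 that rose were those singled out for the purple tissues, from 1.53 for 4CL3-1 to 6.44 for F3H1. Counted in both directions, only 7 of the 20 were called without the filter. Some or all of the structural calls were lost with any 1 library left out, as were most or all calls over all genes. Over E and F against G and H, 11 rose and 2 fell, with a median of 1.47 beside -0.05 over all genes, and without the first G library 8 were called. In G against H, where 1.01% of 18724 genes were called higher in G and 0.705% higher in H (189 and 132, and 13 and 16 with voom), 9 of the 20 fell and 0 rose, all of them among the same 10, while the 2 MYB genes had at most 28 fragments in either group. One fit of all 10 libraries called 14 in that comparison.

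The interaction, called on the adjusted p alone, asks whether the xylem and phloem of one cultivar differ as those of the other do. It was called for 7 of the 20 structural genes, all with a positive value, where 0.174% of 20081 genes were called with a positive value and 1.27% with a negative one (35 and 256, 35 and 86 under quantile normalization, and 17 and 64 with voom). For the 10 genes of the purple tissues the difference lay within G and H, with log2 fold changes of -6.55 to -2.08 in G against H and of -0.57 to 0.45 in E against F. Their choice as high in E, F and H favoured a positive interaction in advance, so their calls are a description. The 7 were CHI1, CHI2, CHS1, F3H1, F3'H1, DFR1 and LDOX1, with values from 4.53 for F3'H1 to 6.09 for CHS1, while those of DcMYB6 and DcMYB7 were negative and not called. Without the first F library or either G library no structural gene was called, and nearly every call of the interaction over all genes was lost. One fit of all 10 libraries called 11 of the 20.

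**Figure D3:**
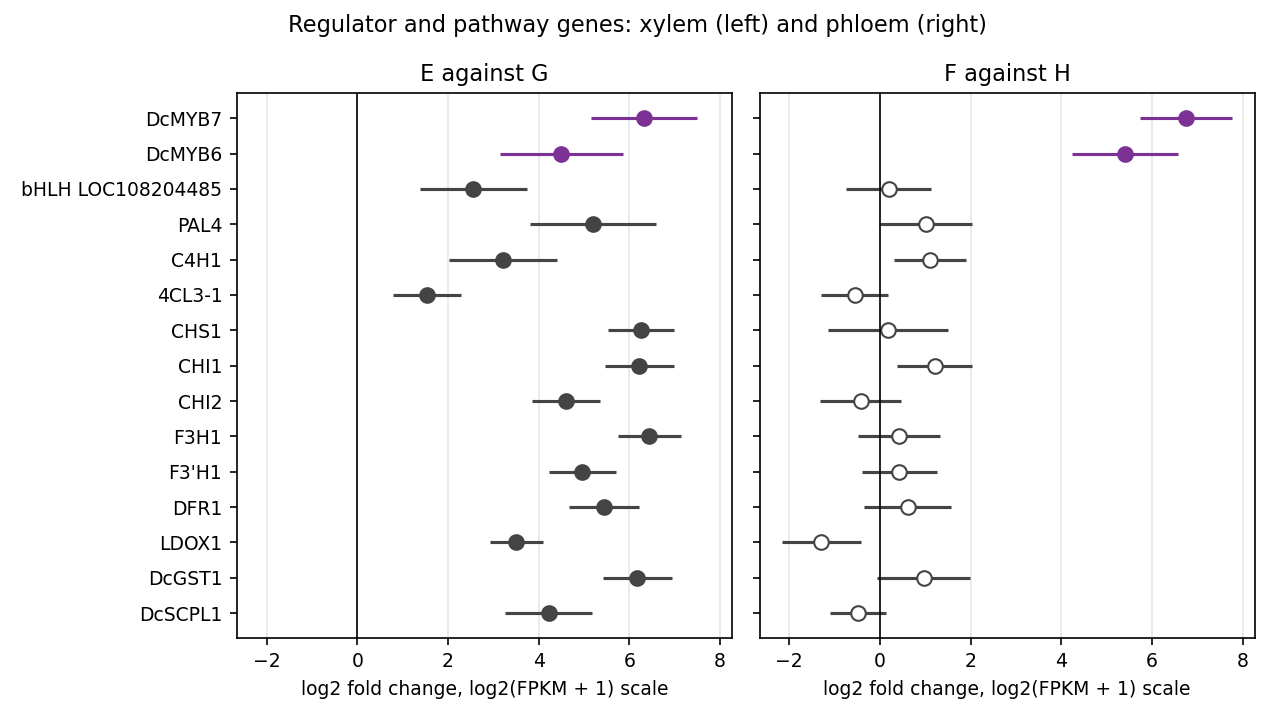
Log2 fold changes on the log2(FPKM + 1) scale with 95% limma intervals for DcMYB7, DcMYB6, the bHLH gene, 10 structural genes, DcGST1 and DcSCPL1, in E against G (left) and F against H (right); filled points were called and open points were not. All 15 genes are called in the xylem comparison, and only DcMYB7 (6.76) and DcMYB6 (5.40) in the phloem comparison.

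The bHLH gene LOC108204485, which encodes a protein of the family that pairs with anthocyanin MYBs, was high in F and in H. It had 16.4 and 18.8 FPKM in F and 19.8 and 11.8 FPKM in H, 11.9 and 6.55 FPKM in E, 0.520 and 0.842 FPKM in G and 0.198 and 0.230 FPKM in CT. F and H overlapped, with a log2 fold change of 0.19 (interval -0.75 to 1.13, adjusted p 0.870, limma), and H rose over CT by 3.74 (adjusted p 0.0197, limma). DcMYB7 therefore exceeded the bHLH gene in every E and F library, where the bHLH gene stood at 0.0860 to 0.157 of the DcMYB7 FPKM. In H the order was turned round, at 113 times (interval 38.6 to 551) and 34.7 times (interval 15.8 to 95.1) the DcMYB7 FPKM. It was also turned round in the second G library, at 7.60 times (interval 1.94 to 64.8). No order could be shown in the first G library, at 1.49 times (interval 0.590 to 4.57). The same held in CT, at 1.565 times (interval 0.288 to 14.9) and 0.745 times (interval 0.237 to 2.41).

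Of the later steps, DcGST1, a glutathione S-transferase of the kind that carries anthocyanin towards the vacuole, averaged 3618 ± 496 FPKM in F and 1883 ± 506 FPKM in H (SD, n = 2 each), a log2 fold change of 0.96 that was not called (adjusted p 0.342, limma), and rose by 8.57 in H against CT (adjusted p 0.000797, limma). DcSCPL1, a serine carboxypeptidase-like acyltransferase that acylates anthocyanins in carrot, averaged 200 ± 0.459 FPKM in F and 280 ± 9.30 FPKM in H (SD, n = 2 each), with a log2 fold change of -0.48 (adjusted p 0.439, limma). In H against CT 12 of the 20 structural genes rose, the 10 of the purple tissues among them, and 1 fell, with a median of 3.03 beside -0.46 over all genes, in the comparison in which DcMYB6 fell by 1.42 and DcMYB7 held 9 fragments in H and 8 in CT. Fewer of the 20 were called without the second H library or either CT library. Without the first CT library nearly every call of H against CT over all genes was lost, and without the second every call.

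**Figure D4:**
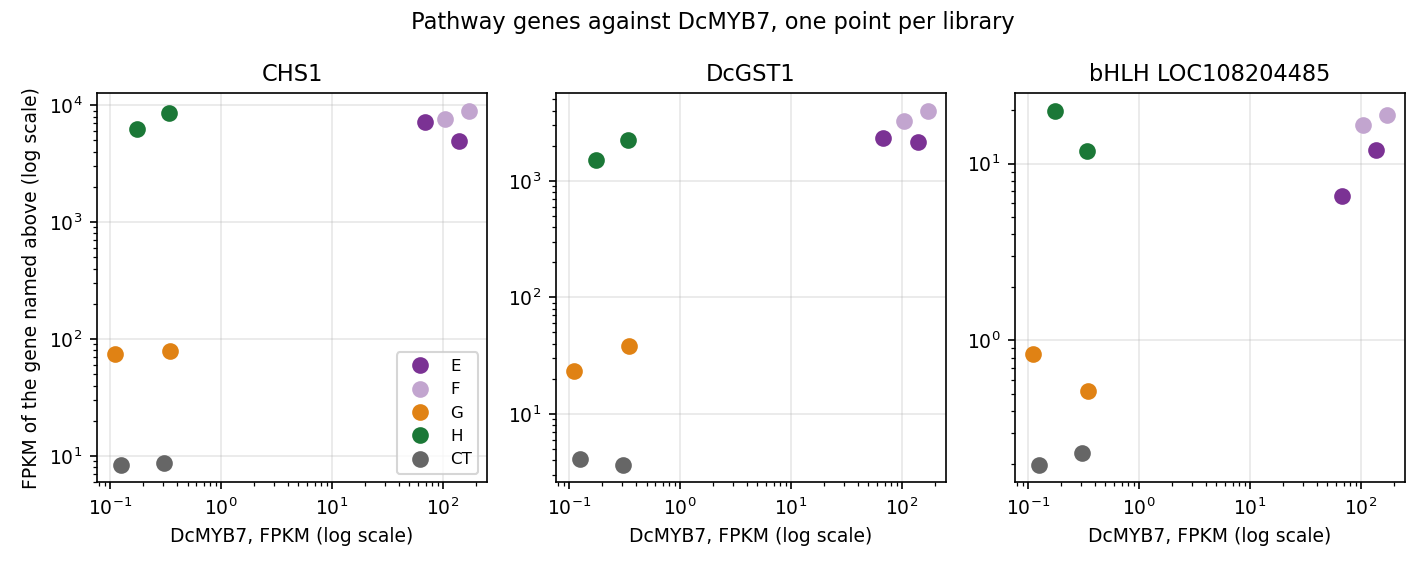
FPKM of CHS1, DcGST1 and the bHLH gene LOC108204485 against FPKM of DcMYB7 (both axes log scale), with 1 point per library coloured by group. The H libraries stand at the upper left of each panel, level with E and F for the pathway gene (CHS1 6252 and 8503 FPKM) and with G and CT for DcMYB7 (0.175 and 0.338 FPKM).

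Against CT, structural genes were called in E, F and G as well. In G against CT, with 5.36% and 7.96% of all genes called higher and lower in G, the list had 8 genes that rose and 2 that fell. With any 1 of these 4 libraries left out every call over all genes was lost, those of the list included. In E against CT 10 rose and 3 fell (3.54% and 11.6% of all genes), and in F against CT 14 rose and 1 fell (7.77% and 21.6% of all genes). With either CT library left out every call of both comparisons over all genes was lost, those of the list included. In E against F 1 of the 20 was called, lower in E, and between 0 and 7 with other settings. With any 1 library left out that call was lost, as were most or all calls over all genes.

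Among the 18 MYB genes on the study's list, ranked by mean FPKM within a group, DcMYB7 was 2nd in E and 1st in F, but 15th in G, 14th in H and 16th in CT. DcMYB6 was 5th in E and 3rd in F, 14th in G, 18th in H and 10th in CT. As the list was chosen on these samples, the ranks are a description.

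The genes whose levels followed the pair most closely were sought by Pearson's r of log2(FPKM + 1) over the 10 libraries, across 20318 annotated genes averaging 1 FPKM or more in some group. These r are a description over 10 points of 5 groups, in which E and F stand apart from the rest. The 5 most like DcMYB7 were LOC108201037 (0.997), LOC108207793 (0.996), LOC108219514 (0.996), LOC108213806 (0.994) and LOC108216396 (0.993). Each of the 5 was higher in all E and F libraries than in any other, as choosing by r with DcMYB7 favours. LOC108219514 had 25.0 to 56.4 FPKM in E and F and 0 to 0.106 FPKM in the other 6 libraries. LOC108207793 was low, with 0.833 to 1.46 FPKM in E and F and 0 elsewhere. The list changed with other measures of likeness, as given below. The 5 most like DcMYB6 were LOC108209512 (0.977), LOC108216396 (0.972), LOC108215615 (0.970), LOC108200661 (0.970) and LOC108227836 (0.970). LOC108216396, at 13.0 to 32.9 FPKM in E and F and 0 to 0.208 FPKM elsewhere, was in both groups, and LOC108227836 reached 281 FPKM. The table used for names gives these genes no description.

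DcMYB7 stood 6th in likeness to DcMYB6, with r = 0.970, and DcMYB6 30th in likeness to DcMYB7. The enzyme, bHLH, DcGST1 and DcSCPL1 genes named above had r between 0.49 and 0.80 with DcMYB7 and between 0.31 and 0.65 with DcMYB6. The highest of them, C4H1 for DcMYB7 and PAL4 for DcMYB6, stood 579th and 1314th.

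DcMYB7 spans bases 27816757 to 27819182 on the minus strand in the files, with a listed exon length of 1136 bases, and DcMYB6 spans 1915 to 3998 on the minus strand, with 1161 bases. The files name sequences by accession only and the genome build is not given in the sources used here. In the files DcMYB6 is the only locus on its sequence, so it has no neighbours there. In the gene order of the RefSeq table for assembly DH1 v3.0, another build, the 2 genes lie on one chromosome with 1 gene, LOC108213641, between them. LOC108213641 was listed at 0 in all 10 libraries.

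The other neighbours of DcMYB7 in the files were listed at 0 or low, with 1 exception. LOC108211153 and LOC108215494, on the lower side, were listed at 0 in all libraries. LOC108211677 beyond them had 4.49 and 4.57 FPKM in F, 2.29 and 2.07 FPKM in H and 0.434 and 0.902 FPKM in E. Its levels were 1.34 and 0.752 FPKM in G and 5.59 and 3.63 FPKM in CT. LOC108212502, on the upper side of LOC108213641, had 0.130 and 0.0673 FPKM in E and 1.84 and 0.909 FPKM in F and was listed at 0 in all 6 G, H and CT libraries, but its value in E and F against G and H, 0.68, was not called (adjusted p 0.0478, limma, below the minimum change). LOC108213624, a long non-coding RNA and the third gene on the upper side, had 97.5 and 43.9 FPKM in F, 7.09 and 4.02 FPKM in H, 72.1 and 14.5 FPKM in E, 15.1 and 18.2 FPKM in G and 5.09 and 5.68 FPKM in CT. It rose in E and F against G and H by 2.16 (adjusted p 0.0315, limma), a call kept in 8 of 16 alternatives. That call was lost when 1 of the F, G or H libraries was left out. In F against H it rose by 3.38 (adjusted p 0.0333, limma), a call kept in 5 of 11. With any 1 library left out the latter call was lost, as was every call of that comparison. In E against G, where the second E library lay below both G libraries, its value was 0.94 (adjusted p 0.520, limma).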

How the data were processed

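The authors mapped read pairs to a carrot genome from NCBI and deposited FPKM per locus and library with each locus's position and length; the submitters' processing notes name Bowtie2 2.2.3, TopHat2 2.0.12, HTSeq 0.6.1 and DESeq 1.18.0. Deposited length is the exon length behind the FPKM. That last tool needs raw counts, so limma 3.58.1 (R 4.3.3, trend in the prior variance) was run on log2(FPKM + 1) across all genes averaging 1 FPKM or more in a compared group, using only the libraries compared, and p-values were adjusted by Benjamini-Hochberg. The script was tested on simulated data. Fragments were recovered from FPKM, length and library totals, in which 73.1% to 74.0% of loci per library gave whole numbers. Tables and plots used Python 3.11.15, SciPy 1.17.1 and matplotlib 3.10.9.

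The members and gene lists were chosen with earlier results of these data known. Named genes were the pair, the 10 structural genes the study singled out, the bHLH, DcGST1 and DcSCPL1 genes, the 5 genes most like each member and 3 neighbours a side. P-values measure the spread between 2 libraries a group. The alternatives were no filter, a pseudocount of 0.1, one fit of all libraries, a replicate block and voom on recovered fragments. Quantile normalization, no minimum fold change and each library left out were the others. The setting without a minimum fold change cannot lose a call, but is included in the counts of alternatives given for single genes. Leaving out the second E and second H libraries together was chosen after seeing the data.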

Additional observations from a re-analysis of the deposited data

Results flagged for a closer look

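The xylem to phloem change differed between E and F on one side and G and H on the other for 9 pathway genes, by the limma interaction on the log2(FPKM + 1) scale. The values were 6.09 for CHS1, 6.01 for F3H1, 5.21 for DcGST1, 5.02 for CHI2, 5.0 for CHI1, 4.84 for DFR1, 4.8 for LDOX1, 4.70 for DcSCPL1 and 4.53 for F3'H1. A positive value means a higher xylem level relative to phloem in E and F, set against the same quantity in G and H. DcMYB6 (-0.90) and DcMYB7 (-0.43) were not among them. Over all 20081 genes tested, 0.174% were called with a positive value and 1.27% with a negative one. The study had picked these 9 genes on these same samples as high in E, F and H. That choice favoured a positive value in advance, so the 9 values are a description. The calls of the structural genes among them were lost with some libraries left out, as given above.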

How the results depend on the processing

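DcMYB6 and DcMYB7 kept the sign of their log2 fold change in 175 of 178 fits under other settings and lost a call in 32, and no value gained a call. Calls were lost for DcMYB6 in E against G without a filter (4.50) and with voom (6.62), in F against H without a filter (5.40) and with voom (9.78), and in H against CT with one fit of all libraries (-1.42), and for DcMYB7 in F against H with voom (8.94). In F against H, voom called 0 of all 18671 genes. The cause of the lost calls was not tested. With 1 library left out, DcMYB6 ranged from 3.89 to 5.11 in E against G, 5.08 to 5.72 in F against H, -0.57 to 0.072 in E against F, 3.55 to 3.91 in E against CT, 3.66 to 4.30 in F against CT and -1.60 to -1.24 in H against CT. DcMYB7 ranged from 5.83 to 6.83 in E against G, 6.40 to 7.11 in F against H, -0.96 to 0.044 in E against F, 5.84 to 6.85 in E against CT, 6.44 to 7.16 in F against CT and -0.93 to 0.079 in the interaction. The 3 sign changes, in E against F for both genes and in the interaction for DcMYB7, were all in values that were not called.

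Of the 20 structural genes, 7 were called in E against G without a filter, against 12 with it. In F against H one fit of all libraries called 5, the replicate block 3 and quantile normalization 1, against 0. In E against F the calls were 0 without a filter and with voom, 2 with a pseudocount of 0.1, 7 with one fit, 6 with the replicate block and 3 with quantile normalization, against 1. One fit called 14 in G against H and 11 in the interaction, against 9 and 7. With 1 library left out the counts ranged from 8 to 13 in E and F against G and H, 0 to 7 in E against G and in the interaction, 0 to 0 in E against F and G against CT, 0 to 13 in E against CT, 0 to 17 in F against CT and 0 to 15 in H against CT.

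Over all genes, calls under other settings ranged from 1295 to 3005 in E and F against G and H (2343 as reported), 0 to 2856 in E against G (1313), 0 to 1223 in F against H (263), 0 to 862 in E against F (68), 29 to 1383 in G against H (321), 0 to 8074 in E against CT (2945), 0 to 7891 in F against CT (5789), 0 to 3077 in G against CT (2592), 0 to 8611 in H against CT (1981) and 0 to 622 in the interaction (291).

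Replicate numbers are shared between groups, but nothing in the labels ties equal numbers together, and the replicate differences of E and F (r = -0.29 over 20824 genes), G and H (-0.56), E and G (-0.41) and F and H (-0.10) did not run together. The replicate block changed no call of DcMYB6 or DcMYB7. Of the 10 genes most like DcMYB7, 0 were shared with Spearman's rho, 3 with a pseudocount of 0.1, 2 with group means and 6 with quantile normalization, and for DcMYB6 0, 4, 0 and 4 were shared. Depth limits DcMYB7 in G, H and CT, at 2 to 6 fragments per library.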
